A study of Homo sapiens with 6 samples.

Results

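The genes MYO18A, SPAG9, NFYA, ADD3, RAI14, FAT1, EXOC1, NUMB and PLOD2 carry cassette exons whose inclusion the study followed as part of a mesenchymal splicing pattern. Their rows were found by gene symbol in the deposited gene table, where each of the 9 genes had 1 row among 74852. MYO18A shares its row with TIAF1, and NFYA shares its row with the pseudogene ADCY10P1, so that the reads of these pairs cannot be parted. The samples were MDA-MB-231 cells, an established line of human triple-negative breast cancer (TNBC) whose phenotype is mesenchymal. They were transfected in 2 rounds with non-targeting siRNAs (si-CTRL) or with siRNAs against the mitotic kinase NEK2 (si-NEK2), and polyA-enriched RNA of 3 libraries per group was sequenced. The sample records give the harvest as 24 h after the last transfection, whereas the methods of the study give a later time after transfection. Both groups come from the same line and received a transfection, each group received a single pool of siRNAs, and the depletion was transient. The table holds the expression of whole genes and no inclusion level of exons, so that the question addressed here is whether the genes that host these exons also changed in total transcript level.

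A cassette exon is an internal exon that is either kept in the mature mRNA or skipped together with its flanking introns. Epithelial and mesenchymal cells keep different sets of such exons, many of them in genes for cell adhesion, the actin cytoskeleton and vesicle traffic, and a switch can alter the protein without any change in the amount of mRNA. MYO18A, RAI14 and ADD3 encode proteins bound to the actin cytoskeleton. FAT1, EXOC1, NUMB and SPAG9 encode proteins of adhesion, membrane traffic and signal scaffolding. PLOD2 encodes a collagen-modifying enzyme of the endoplasmic reticulum, and NFYA a transcription factor subunit.

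The exons are shown because their small size and their place in the mRNA set what a gene-level count can register. Each was read from the GENCODE release 29 transcripts (GRCh38) as the annotated exon of the same gene with the same length as the study's exon and, except for FAT1, with flanking introns of the same lengths. In each case a single exon matched. Capitals mark the exon and small letters the 12 bases of the neighbouring exons on each side, written 5′ to 3′ on the strand of the gene.
MYO18A: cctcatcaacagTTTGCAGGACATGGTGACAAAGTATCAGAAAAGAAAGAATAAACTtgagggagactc
RAI14: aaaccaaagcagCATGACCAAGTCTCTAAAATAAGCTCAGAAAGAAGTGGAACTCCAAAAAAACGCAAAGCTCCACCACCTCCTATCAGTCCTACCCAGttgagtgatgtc
ADD3: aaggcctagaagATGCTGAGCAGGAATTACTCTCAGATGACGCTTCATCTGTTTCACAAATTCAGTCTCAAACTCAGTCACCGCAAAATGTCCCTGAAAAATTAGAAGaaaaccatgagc
FAT1: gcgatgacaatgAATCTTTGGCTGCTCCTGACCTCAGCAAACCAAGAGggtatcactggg
EXOC1: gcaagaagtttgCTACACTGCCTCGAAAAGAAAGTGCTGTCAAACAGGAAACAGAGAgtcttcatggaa
NUMB: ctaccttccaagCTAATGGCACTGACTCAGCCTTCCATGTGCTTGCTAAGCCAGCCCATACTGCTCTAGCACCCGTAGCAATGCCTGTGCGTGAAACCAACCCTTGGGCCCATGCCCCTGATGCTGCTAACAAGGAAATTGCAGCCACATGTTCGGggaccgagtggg
SPAG9: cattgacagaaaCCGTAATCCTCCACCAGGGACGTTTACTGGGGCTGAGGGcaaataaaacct
PLOD2: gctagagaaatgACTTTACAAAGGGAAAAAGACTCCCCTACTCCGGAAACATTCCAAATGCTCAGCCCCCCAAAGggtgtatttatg
NFYA: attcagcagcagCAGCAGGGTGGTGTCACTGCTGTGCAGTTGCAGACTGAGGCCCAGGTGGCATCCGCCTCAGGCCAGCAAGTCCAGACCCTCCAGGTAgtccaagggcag

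On GRCh38 the exon of MYO18A lies at chr17:29085604-29085648 (minus strand), that of SPAG9 at chr17:50975863-50975901 (minus) and that of NUMB at chr14:73279281-73279424 (minus). Those of FAT1 and EXOC1 lie at chr4:186590368-186590403 (minus) and chr4:55888888-55888932 (plus), and those of PLOD2 and ADD3 at chr3:146077862-146077924 (minus) and chr10:110132305-110132400 (plus). The exon of RAI14 lies at chr5:34813574-34813660 (plus) and that of NFYA at chr6:41080811-41080897 (plus). All 9 are internal, coding exons, between 36 bases (FAT1) and 144 bases (NUMB) long, and for all 9 the annotation holds transcripts that keep the exon and transcripts that join its neighbours directly. The length of each is a multiple of 3, against 40.8% of the 117359 internal exons of 36 to 144 bases in coding transcripts. That background is not limited to cassette exons, which were not counted apart. None of the 9 holds a stop codon in the annotated frame, so that keeping or skipping any of them leaves the reading frame intact. GC content ran from 33.3% in the exon of MYO18A to 63.2% in that of NFYA. The 5 letters GCATG, the core of the motif bound by RBFOX splicing factors, were searched on the transcribed strand within the exons only. They were in 0 of the 9, and 8.30% of all internal exons in this range of lengths hold them. With so few exons, a count of 0 cannot be told from that share. Letters across an exon boundary were not counted, and the exon of RAI14 begins with CATG after a g in the printed sequence. The flanking introns were not examined.

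Each deposited value is a read number scaled by the size factor that DESeq2 gave its library, called normalized read count below. It was a whole multiple of 1 read for all values, and the recovered reads came to between 52625492 and 87454509 per library. The reads of the 9 genes were between 1320 and 47470 per library. For 8 of the 9 genes the SD between the libraries of each group exceeded the SD expected from counting error alone, and EXOC1 was the exception. NEK2, the silenced gene, fell from 3438 ± 229 (SD, n = 3) to 345 ± 54.4 normalized read counts (SD, n = 3). The mesenchymal markers VIM, CD44, AXL and ZEB1 had at least 2822 normalized read counts in every library, ESR1, PGR, CDH1 and EPCAM had at most 15.2, and PTPRC, PECAM1 and ALB, markers of other cell types, at most 25.4. Of the mesenchymal markers, CD44 and ZEB1 were lower in si-NEK2 cells past both thresholds given below (log2 fold changes of -0.76 and -0.82). The library of si-CTRL replicate 1 stood apart from the others along the second principal component, which held 16.2% of the variance, and calls that changed without it, or values that moved much, are given with and without it. The libraries of a group are not described as separate cultures in the sample records, so that p-values measure the spread between these libraries. In limma the spread of each gene is also drawn toward that of other genes of similar level.

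Of the 9 genes, MYO18A alone, in the row it shares with TIAF1, passed both thresholds and was higher in si-NEK2 cells. The thresholds were a fold change of 1.5 or more and p at or under 0.05. They are the cut-offs of the study, applied here to a limma fit of the normalized read counts. Among all 18717 genes tested, 22.5% passed them, 8.23% as higher and 14.3% as lower in si-NEK2 cells. When only the p-value adjusted by Benjamini-Hochberg had to be at most 0.05, with no limit on the fold change, 4 of the 9 genes passed in limma, against 43.1% of all genes. MYO18A, NUMB and EXOC1 rose and RAI14 fell, whereas ADD3, FAT1, SPAG9, PLOD2 and NFYA did not pass. The si-CTRL and si-NEK2 libraries did not overlap for 5 of the 9 genes, the same 4 and SPAG9, against 55% of all genes. Of these, 4 were higher and 1 was lower in si-NEK2 cells, against 28.2% and 26.9% of all genes. The median size of the log2 fold change, whatever its sign, was 0.11 over the 9 genes and 0.33 over all genes tested. The means of all 9 genes exceeded 1000 normalized read counts, and such counts also rise with transcript length. This limit was chosen after the values had been seen. Among the 7995 genes whose mean reached it, 15.2% passed both thresholds and 54.2% had an adjusted p-value of at most 0.05 in limma. Their median size of the log2 fold change was 0.27. By count, then, the share of the 9 genes that changed was near or under the background, and no test of the difference was made on 9 genes chosen with earlier results known.

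**Figure D1:**
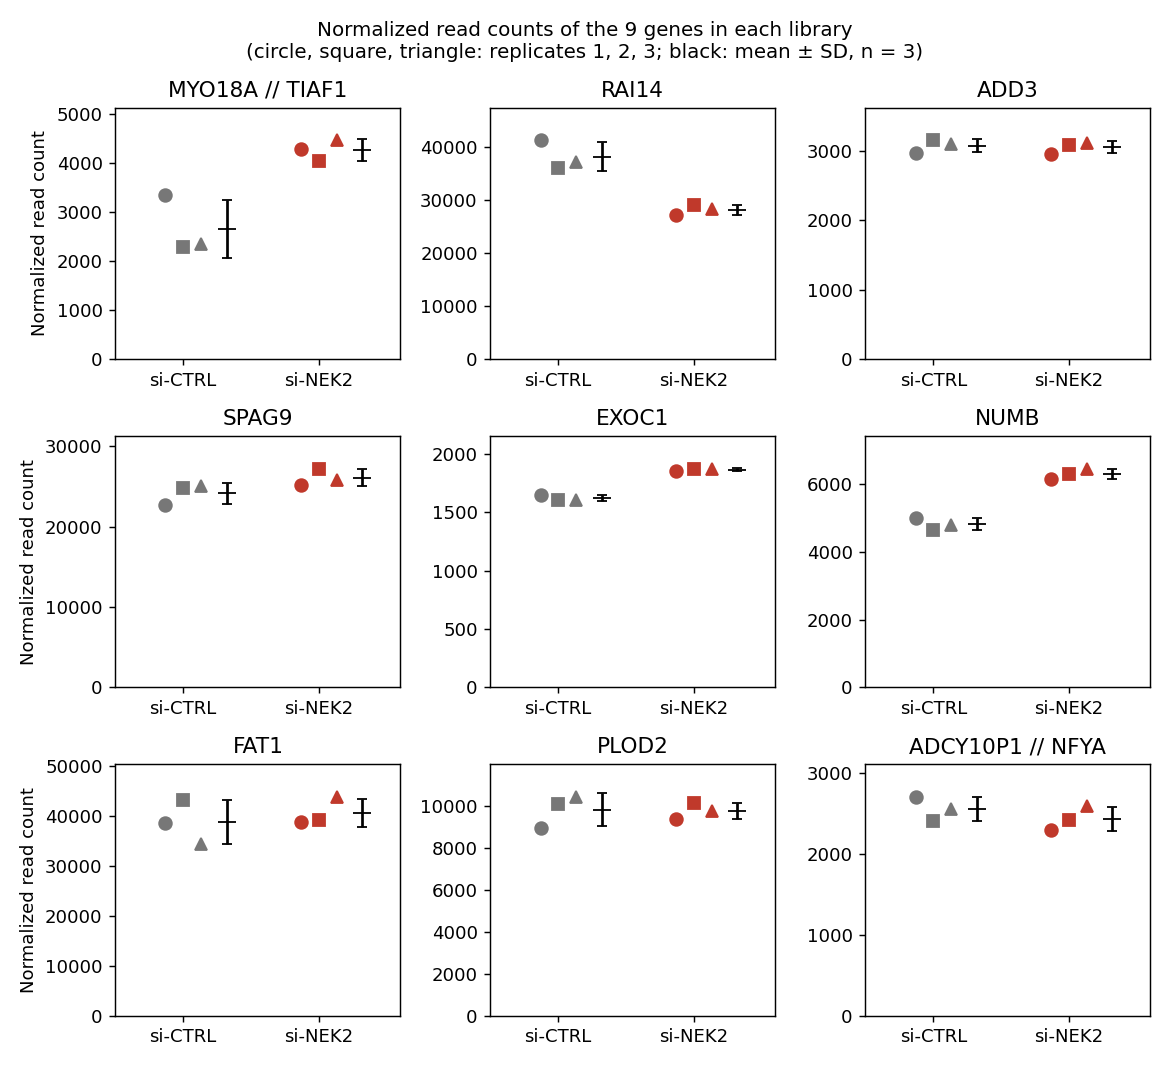
Normalized read counts (vertical axes, from 0) of the 9 genes in the 3 si-CTRL (gray) and 3 si-NEK2 (red) libraries, with the mean ± SD of each group in black; panels headed by 2 symbols are rows shared by 2 genes. The groups are apart for MYO18A, RAI14, EXOC1 and NUMB, barely apart for SPAG9 and mixed for ADD3, FAT1, PLOD2 and NFYA.

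Among the genes of the actin cytoskeleton, the row of MYO18A rose. MYO18A is an unconventional myosin that links actomyosin filaments to the Golgi and to the cell cortex. The row shared by MYO18A and TIAF1 (GSHG0013228, chr17:27400528-27507430, hg19) stood at 3331, 2277 and 2333 normalized read counts in the libraries of si-CTRL replicates 1 to 3, and at 4286, 4024 and 4453 in those of si-NEK2 replicates 1 to 3. All si-NEK2 libraries lay above all si-CTRL libraries, and si-CTRL replicate 1 lay well above the other si-CTRL libraries. The mean rose from 2647 ± 593 (SD, n = 3) to 4255 ± 216 (SD, n = 3), an increase of 60.7%. On the log2 scale this was a change of 0.71 (standard error 0.14, 95% interval from 0.39 to 1.02, adjusted p = 0.00335 in limma). Without si-CTRL replicate 1 it was 0.88 (adjusted p = 3.68e-06 in limma), and with each library rescaled to the same total it was 0.58, just short of a fold change of 1.5. In the annotation, TIAF1 lies within the span of MYO18A on the same strand, and 1394 of its 5337 exonic bases are also exonic in MYO18A. Whether MYO18A, TIAF1 or both rose cannot be told from the shared row.

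RAI14 (ankycorbin), which bundles and stabilises actin filaments, fell by less than the fold threshold. Its row (GSHG0023870, chr5:34656433-34832716, hg19) had 41214, 35961 and 37157 normalized read counts in si-CTRL replicates 1 to 3 and 27170, 28999 and 28291 in si-NEK2 replicates 1 to 3. The lowest si-CTRL library was still well above the highest si-NEK2 library. The mean went from 38111 ± 2754 (SD, n = 3) to 28153 ± 922 (SD, n = 3), a change of -26.1%. On the log2 scale it fell by 0.43 (standard error 0.07, 95% interval from -0.59 to -0.28, adjusted p = 0.00128 in limma), and it stayed between -0.58 and -0.38 over 17 alternatives, with an adjusted p-value of at most 0.0103 in each. A decrease of 1.5-fold was thus within the interval, although under none of these settings did RAI14 pass both thresholds.

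ADD3, the gamma subunit of adducin, which caps actin filaments and joins them to spectrin, did not pass. It (GSHG0003676, chr10:111756107-111895322, hg19) had 2981, 3156 and 3107 normalized read counts in si-CTRL replicates 1 to 3 and 2963, 3083 and 3124 in si-NEK2 replicates 1 to 3. The groups overlapped almost entirely. Its log2 fold change of -0.01 (standard error 0.06) had an adjusted p-value of 0.902 in limma, with a 95% interval from -0.16 to 0.13 that holds no change of 1.5-fold in either direction.

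Among the genes of adhesion, traffic and signalling, NUMB rose most. NUMB encodes an endocytic adaptor that antagonises Notch receptors and takes part in integrin and cadherin traffic. Its row (GSHG0009475, chr14:73741918-73925286, hg19) had 5017, 4660 and 4803 normalized read counts in si-CTRL replicates 1 to 3 and 6167, 6291 and 6462 in si-NEK2 replicates 1 to 3. On average NUMB rose from 4826 ± 180 (SD, n = 3) to 6307 ± 148 (SD, n = 3), an increase of 30.7%, with no overlap between the groups. Its log2 fold change was 0.39 (standard error 0.06, 95% interval from 0.25 to 0.53, adjusted p = 0.00127 in limma), which lies below a fold change of 1.5 over its whole interval. It remained between 0.26 and 0.41 over 17 alternatives, with an adjusted p-value of at most 0.0107 in each.

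EXOC1 encodes SEC3, the exocyst subunit that helps to dock secretory vesicles at the plasma membrane, and it showed the smallest of the 4 changes. It (GSHG0022601, chr4:56719816-56771244, hg19) had 1650, 1602 and 1608 normalized read counts in si-CTRL replicates 1 to 3 and 1850, 1867 and 1874 in si-NEK2 replicates 1 to 3. The groups did not overlap, and the libraries of each lay closer together than counting error alone would place them, which gives an SD of 41.4 in si-CTRL and 41.6 in si-NEK2 cells. The mean rose from 1620 ± 26.1 (SD, n = 3) to 1864 ± 12.01 (SD, n = 3), an increase of 15.1%. This gave a log2 fold change of 0.20 (standard error 0.07, 95% interval from 0.05 to 0.35, adjusted p = 0.0345 in limma). Of 17 alternatives, 7 kept the adjusted p-value at or under 0.05, and with each library rescaled to the same total the log2 fold change was 0.07 (adjusted p = 0.397 in limma). The call was also lost on leaving out si-CTRL replicate 2, si-CTRL replicate 3 or any si-NEK2 library, with adjusted p-values between 0.0863 and 0.12 in limma and log2 fold changes between 0.19 and 0.21.

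SPAG9 encodes JIP4, a scaffold for JNK and p38 kinases that also couples vesicles to microtubule motors. It (GSHG0013572, chr17:49039535-49198226, hg19) had 22677, 24770 and 25054 normalized read counts in si-CTRL replicates 1 to 3 and 25172, 27241 and 25855 in si-NEK2 replicates 1 to 3. The lowest si-NEK2 library lay just above the highest si-CTRL library, so that the groups did not overlap, but the distance was small beside the spread within them. The log2 fold change of 0.11 (standard error 0.07, 95% interval from -0.04 to 0.26) did not pass (adjusted p = 0.211 in limma), and it was 0.07 without si-CTRL replicate 1.

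FAT1, a giant protocadherin of cell contacts, varied within the groups more than between them. It (GSHG0023708, chr4:187508937-187647850, hg19) had 38685, 43266 and 34431 normalized read counts in si-CTRL replicates 1 to 3 and 38847, 39281 and 43870 in si-NEK2 replicates 1 to 3. The highest si-CTRL library exceeded 2 of the si-NEK2 libraries. Its log2 fold change was 0.07 (standard error 0.09, 95% interval from -0.14 to 0.28, adjusted p = 0.565 in limma).

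PLOD2 hydroxylates lysines in the telopeptides of collagen, a step that sets the type of collagen crosslink, and it did not pass. It (GSHG0022131, chr3:145787230-145879282, hg19) had 8950, 10097 and 10428 normalized read counts in si-CTRL replicates 1 to 3 and 9391, 10123 and 9771 in si-NEK2 replicates 1 to 3. All si-NEK2 libraries lay within the range of the si-CTRL libraries. Its log2 fold change was -0.0069 (standard error 0.07, 95% interval from -0.18 to 0.16, adjusted p = 0.951 in limma).

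NFYA is the subunit of the NF-Y complex that makes the sequence-specific contacts with the CCAAT box of promoters. The row shared by ADCY10P1 and NFYA (GSHG0034018, chr6:41040645-41108572, hg19) had 2707, 2412 and 2558 normalized read counts in si-CTRL replicates 1 to 3 and 2301, 2418 and 2597 in si-NEK2 replicates 1 to 3. The groups overlapped. For the shared row the log2 fold change was -0.07 (standard error 0.08, 95% interval from -0.25 to 0.11, adjusted p = 0.505 in limma), and -0.03 without si-CTRL replicate 1.

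**Figure D2:**
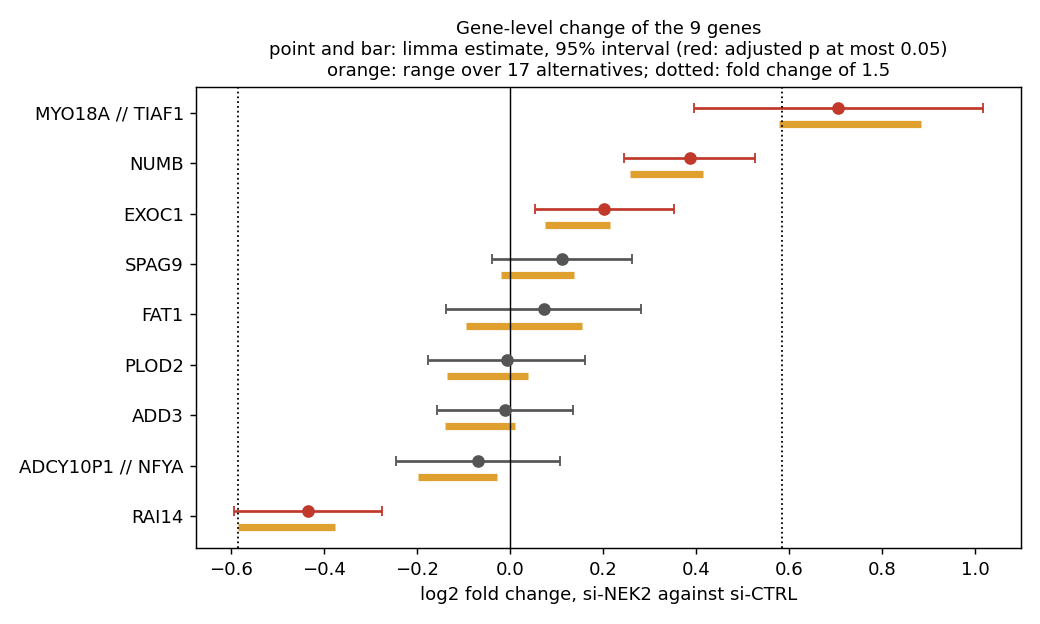
Log2 fold change of si-NEK2 against si-CTRL (horizontal axis) for the 9 genes, with the limma estimate and its 95% interval (points and bars; red for an adjusted p-value of at most 0.05) and the range over 17 alternatives (orange). The estimate of the row shared by MYO18A and TIAF1, 0.71, is the only one beyond the dotted lines at a fold change of 1.5, and the intervals of 5 genes include 0.

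Per kilobase of the longest coding transcript in GENCODE, a scale on which levels can be set side by side between genes, RAI14 was the highest of the 9 in si-CTRL cells with 7484 ± 541 normalized read counts per kb (SD, n = 3). SPAG9 (2921 ± 157), PLOD2 (2633 ± 208) and FAT1 (2624 ± 299) followed, and these neighbours did not differ beyond their spread. NUMB had 933 ± 34.8 normalized read counts per kb. ADD3 (710 ± 20.9) and NFYA with its pseudogene (671 ± 38.8) lay within their spread of each other, and EXOC1 had 456 ± 7.36. MYO18A with TIAF1 had the lowest level per kb, 265 ± 59.3 in si-CTRL cells, and remained the lowest at 426 ± 21.6 in si-NEK2 cells, below EXOC1 at 525 ± 3.38. RAI14 remained the highest in si-NEK2 cells at 5529 ± 181. Ranked on this scale among 12029 tested genes with a coding transcript, RAI14 was at the 95.1st percentile and MYO18A at the 47.7th.

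The exons printed above are short beside the longest coding transcript of each gene, which need not hold the exon. Their length was between 0.243% (FAT1) and 2.78% (NUMB) of the length of that transcript. With transcript number unchanged, moving from full inclusion to full skipping would change the reads of a transcript of that length by about as much. In a shorter transcript the share would be larger. The exon of MYO18A equals 0.45% of that length, and the row that MYO18A shares with TIAF1 rose by 60.7%. That of RAI14 equals 1.71%, where the gene-level value changed by -26.1%. For NUMB the shares were 2.78% against an increase of 30.7%, and for EXOC1 1.27% against 15.1%. For ADD3 and NFYA, exons of 2.21% and 2.28% of that length stood beside changes of the mean of -0.803% and -4.71%. Both changes were within the spread between libraries. The value of NFYA is that of the row shared with ADCY10P1. Inclusion of the exons was not measured here, and whether it bears on the gene-level values was not tested.

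**Figure D3:**
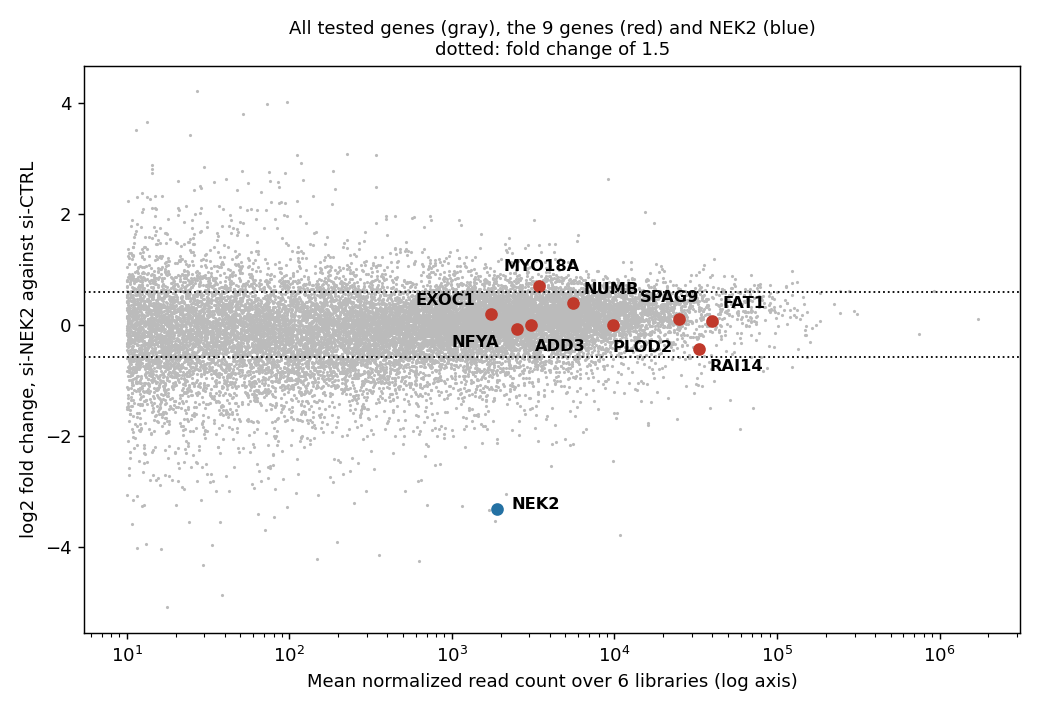
Log2 fold change of si-NEK2 against si-CTRL (vertical axis) by mean normalized read count over the 6 libraries (horizontal log axis) for 18717 tested genes (gray), the 9 genes (red) and NEK2 (blue). The row of MYO18A and TIAF1 alone among the 9 lies beyond the dotted lines at a fold change of 1.5, whereas NEK2 lies at -3.32.

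The relatives and partners of the 9 proteins were examined by role, from lists written for the purpose, together with the other genes whose exons the study tested by RT-PCR. Of the 73 genes on all these lists, 68 were tested, of which 13 passed both thresholds, 8 higher and 5 lower in si-NEK2 cells, against 22.5% of all genes tested. The median log2 fold change was 0.11 over these genes and 0.01 over all. With other scalings the split turned, to 6 higher and 8 lower genes with upper quartile or equal total scaling. With an adjusted p-value of at most 0.05 in limma, 33 of the 68 passed, against 43.1% of all. Without si-CTRL replicate 1, 43 passed. The share of all genes was not taken for that fit, so that 43.1% is no background for the 43.

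Around MYO18A, 9 of 10 listed myosins, light chains and partners were tested, with a median log2 fold change of 0.08. The myosin regulatory light chains MYL9 (log2 fold change 0.81, standard error 0.09) and MYL12B (0.62, standard error 0.09) rose past both thresholds, and LURAP1, an adaptor between MYO18A and the kinase MRCK, fell (-0.77, standard error 0.13), a call lost with quantile normalization. The increase of MYL12B was under a fold change of 1.5 without si-CTRL replicate 1 and with upper quartile, equal total or quantile scaling. MYO18B, the paralog of MYO18A, had at most 5.70 normalized read counts in any library and was not tested. UACA, an ankyrin-repeat relative of RAI14, had a log2 fold change of 0.04 (adjusted p = 0.661 in limma).

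Around ADD3, 9 of 10 listed genes of the spectrin skeleton were tested, with a median log2 fold change of 0.35. SPTAN1, which encodes alpha-II spectrin, rose from 22637, 23748 and 20145 normalized read counts in si-CTRL replicates 1 to 3 to 40305, 39552 and 43071 in si-NEK2 replicates 1 to 3 (log2 fold change 0.89, standard error 0.08, adjusted p = 5.58e-05 in limma). DMTN, the actin-bundling protein dematin, also rose (0.85, standard error 0.17). The other adducins did not pass, with log2 fold changes of -0.0051 for ADD1 (adjusted p = 0.955) and -0.23 for ADD2 (adjusted p = 0.0875 in limma). Whether the adducins and SPTAN1 differed in their change was not tested.

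Around SPAG9, all 11 listed scaffolds, kinases and motors were tested, with a median log2 fold change of -0.12. MAPK8IP3, which encodes JIP3, the closest relative of JIP4, had a log2 fold change of -0.12 (adjusted p = 0.294 in limma). MAPK8IP2, which encodes another JNK scaffold, rose from 40.0, 65.9 and 54.2 normalized read counts in si-CTRL replicates 1 to 3 to 146, 163 and 124 in si-NEK2 replicates 1 to 3 (log2 fold change 1.44, standard error 0.21). It was the largest increase among the listed partners but at a low level. MAPK14, the p38-alpha kinase, fell (-0.61, standard error 0.08), a call lost without si-CTRL replicate 2 or si-NEK2 replicate 1.

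Around FAT1, 4 of 6 listed cadherins and ligands were tested. FAT3 rose from 550, 697 and 364 normalized read counts in si-CTRL replicates 1 to 3 to 1130, 1046 and 1265 in si-NEK2 replicates 1 to 3 (log2 fold change 1.14, standard error 0.21). DCHS1, the dachsous cadherin that binds FAT4, fell (-1.09, standard error 0.17) at a level of at most 107 normalized read counts. FAT4 did not pass (0.05, adjusted p = 0.811 in limma), and FAT2 had between 3.27 and 27.5 normalized read counts and was not tested. FAT1 remained the most abundant FAT cadherin by reads, with at least 34431 normalized read counts in every library, whereas no library of FAT3 exceeded 1265.

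Around EXOC1, all 9 listed exocyst genes were tested and none passed both thresholds, with a median log2 fold change of 0.15. EXOC5 (0.49, standard error 0.07) and EXOC3 (0.22, standard error 0.07) rose with an adjusted p-value of at most 0.05 in limma, and EXOC6 fell (-0.37, standard error 0.10). The log2 fold changes of EXOC2, EXOC4, EXOC6B, EXOC7, EXOC8 and EXOC3L1 lay between -0.13 and 0.18 and did not pass. The increase of EXOC1 was thus within the range of its complex, which moved in both directions.

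Around NUMB, 8 of 9 listed genes were tested, with a median log2 fold change of 0.24. NUMBL, the paralog of NUMB, had a log2 fold change of 0.11 (adjusted p = 0.586 in limma). ITCH, a ubiquitin ligase that acts with NUMB on Notch, rose from 9597, 9045 and 9215 normalized read counts in si-CTRL replicates 1 to 3 to 15990, 16798 and 16275 in si-NEK2 replicates 1 to 3 (log2 fold change 0.82, standard error 0.06, adjusted p = 2.49e-05 in limma). Its groups lay far apart, and the call held under all 17 alternatives.

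Around PLOD2, all 6 listed genes of collagen hydroxylation and crosslinking were tested. PLOD1, the lysyl hydroxylase of the helical part of collagen, rose with an adjusted p-value of 0.00999 in limma (log2 fold change 0.38, standard error 0.09), and PLOD3 did not pass (-0.17, adjusted p = 0.178 in limma). LOX, the lysyl oxidase that crosslinks hydroxylated collagen, fell from 2730, 2162 and 2100 normalized read counts in si-CTRL replicates 1 to 3 to 1006, 1019 and 1093 in si-NEK2 replicates 1 to 3. Its log2 fold change of -1.16 (standard error 0.11) was the largest decrease among the listed partners. Of the other subunits of NF-Y, NFYB rose under the fold threshold (0.33, standard error 0.07, adjusted p = 0.00484 in limma) and NFYC did not pass (-0.18, adjusted p = 0.164 in limma).

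The other genes whose exons the study tested by RT-PCR, which it chose on these same libraries, were 10, all tested here, with a median log2 fold change of 0.29. Past both thresholds, 2 rose, SPTAN1 and KIF13A, and none fell. With an adjusted p-value of at most 0.05 in limma, 5 rose and none fell, against 21.8% of all genes that rose and 21.3% that fell. Most of these genes had means above 1000 normalized read counts, where 54.2% of genes passed in either direction. The median of this list was not taken under other scalings, of which equal total scaling put the median of all genes at -0.11. KIF13A (0.59, standard error 0.07) lay at the fold threshold and passed both thresholds under 9 of 17 alternatives.

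**Figure D4:**
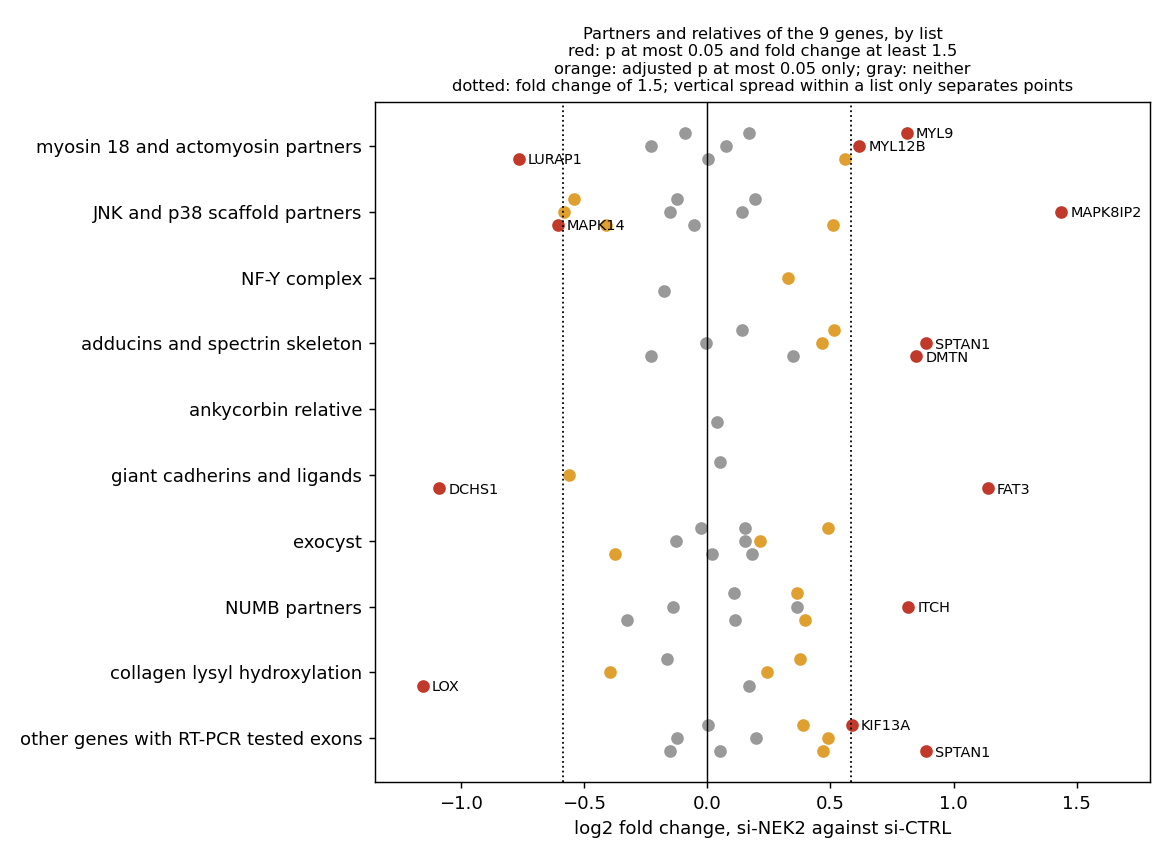
Log2 fold change of si-NEK2 against si-CTRL (horizontal axis) for the genes of each list (rows) that are reported here, colored by the thresholds passed and named where both were passed. The largest changes are those of MAPK8IP2 (1.44), FAT3 (1.14), LOX (-1.16) and DCHS1 (-1.09), and no gene of the exocyst row passes both thresholds.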

How the data were processed

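Libraries were grouped by the titles of the sample records. The authors deposited a signal for each gene and library: reads scaled by size factors from DESeq2, on genes of the FAST DB annotation (hg19). The submitters' processing notes name STAR 2.4.0, SAMtools, Picard and DESeq2; the counter and its strand setting are not given in the sources used here, so that overlapping genes may share reads. All values were whole multiples of 1 read within a tolerance of 0.01, and the recovered reads were tested with edgeR 4.0.16 (4205 genes past both thresholds) and DESeq2 1.42.0 (4039) as alternatives. Genes with a mean of at least 10 were tested by linear models of log2(value + 1) (limma 3.58.1, R 4.3.3), which understates the change of low genes, with an intensity trend and Benjamini-Hochberg adjustment over all 18717 genes. The procedure was tested on simulated counts without an outlying library and with less spread than some genes show here, such as MYO18A in si-CTRL. That test does not cover such genes. The 9 genes and the partner lists were chosen with earlier results of these data known; the text names all 9 genes, their closest paralogs, the exocyst subunits and the listed partners past both thresholds, of which 1 is counted but not reported by name here. The main model did not pair libraries by replicate number, and whether they were paired cannot be told from so few libraries. Alternatives covered scaling, pseudocount, filter, moderation, the replicate block, each library left out and both count models.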

Additional observations from a re-analysis of the deposited data

How the results depend on the processing

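NEK2 kept its call under all 17 alternatives. With equal total scaling, under which the median gene lay at -0.11, and with a fold change of at least 2, 0 of the 9 genes passed in place of 1. With upper quartile or equal total scaling, no filter, no intensity trend or the replicate block, 3 of the 9 genes had an adjusted p-value of at most 0.05 in limma in place of 4, EXOC1 being lost each time. A fold change of at least 2 left 4 of the 68 listed genes and 1637 of all genes. Leaving out each library in turn gave 1 of the 9 genes, from 3 to 4 with an adjusted p-value of at most 0.05 in limma, from 11 to 13 listed genes, from 3922 to 4413 of all genes, and from -3.42 to -3.19 for NEK2. Small changes crossed 0, namely SPAG9 (-0.0172 when totals were equalised, -0.0187 after quantile normalization) and FAT1 (-0.0562 and -0.0952 likewise). Leaving out single libraries took FAT1 from -0.0109 (without si-CTRL replicate 3) to 0.15 (without si-CTRL replicate 2), ADD3 from -0.0353 to 0.0106 (above 0 without si-CTRL replicate 2 or without si-NEK2 replicate 1) and PLOD2 from -0.0727 to 0.0376 (above 0 without si-NEK2 replicate 1, without si-CTRL replicate 2 and without si-CTRL replicate 3). Of all genes past both thresholds 36.6% were higher, 21.3% with equal total scaling. Same-numbered libraries did not deviate together (r across genes of -0.091, 0.0469 and -0.147); with the replicate number as a block, 4084 of all genes, 13 listed genes and 1 of the 9 genes passed, NEK2 stayed at -3.32, and EXOC1 had an adjusted p-value of 0.0914 in limma. The loss of the EXOC1 call without a filter (adjusted p = 0.0566) follows from the number of genes tested; for the other losses the cause was not tested.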

Other observations

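A row without a symbol inside the FAT1 locus (GSHG0023709, chr4:187543070-187544347, hg19) had 33.7, 35.8 and 35.2 normalized read counts in si-CTRL replicates 1 to 3 and 52.4, 47.0 and 68.3 in si-NEK2 replicates 1 to 3. ADD3-AS1, antisense to ADD3, had at most 6.25 normalized read counts in any library.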
